A study of Mus musculus with 6 samples.

Results

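The genes examined were the Wnt ligands, the frizzled receptors, the co-receptors Lrp5 and Lrp6, and 6 genes that act inside the cell in the same pathway (Ctnnb1, Axin2, Lef1, Tcf7, Tcf7l1 and Tcf7l2). They were picked by symbol alone among the protein-coding genes of the RefSeq mouse annotation, by a rule that holds no measured value. The choice gave 37 of 21887 protein-coding genes: 19 ligands, 12 receptors (10 frizzleds, Lrp5 and Lrp6) and 6 effectors. For each gene, the peaks overlapping its body plus 20 kb on each side were collected. These windows held 221 of the 85174 regions found in the series.

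Chromatin accessibility was measured by ATAC-seq, in which the Tn5 transposase cuts and tags DNA that is not covered by nucleosomes, in purchased primary mouse vascular smooth muscle cells. By label, 3 libraries are negative controls and 3 come from cells transfected with small interfering RNA (siRNA) against Arid3a, a DNA-binding protein with an AT-rich interaction domain. The labels number the siRNA of each knockdown library, without saying whether the numbers mark different siRNAs or replicates of the same one. Cells were kept for 24 h after transfection, and each assay used 50000 cells and 30 min of Tn5. The labels also describe angiotensin II, as a model of abdominal aortic aneurysm, without saying which libraries received it, and no strain, sex or age is given. They do not say that the libraries came from separate cultures, so each p-value measures only the spread between these 6 libraries. An siRNA lowers the transcript and not the gene, so the peak lists hold no check of the knockdown.

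Wnt proteins are secreted, lipid-modified signals that bind frizzled receptors. Together with Lrp5 or Lrp6 they stop the destruction complex, built on Axin, from degrading β-catenin, which then enters the nucleus and works with the DNA-binding proteins Lef1, Tcf7, Tcf7l1 and Tcf7l2. Other ligands, Wnt5a and Wnt11 among them, are known mainly for signals that do not need β-catenin. In the vessel wall, Wnt signalling is known for roles in smooth muscle proliferation, migration and matrix production.

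The lists held 33248 to 52091 peaks. Depth, estimated from the lists, was 0.950 to 2.00 M tags (megatags), and control replicate 2 and knockdown replicate 3 were the shallowest and had the shortest lists. A typical summit had few tags (library medians of 8 to 11), so a weak peak can be missed in one library and listed in another by counting error. The marker genes did not set the labelled cell type apart: 3 of 8 smooth muscle markers (Acta2, Tagln and Smtn) had a peak at the start window in 6 of 6 libraries, about the share of all genes, 37.4%, and Myh11 and Des had none in any library. Of the other marker lists, 2 of 6 fibroblast genes (Col1a1 and Col1a2), 0 of 6 endothelial, 1 of 6 leukocyte, 0 of 4 epithelial and 1 of 4 neural genes had one.

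A start window was defined as 1000 bases on each side of a gene's transcription start. The set of stranded RefSeq start sites used here covered 27 of the 37 genes. For the other 10 (Wnt5a, Wnt7b, Wnt8a, Wnt10a, Fzd2, Fzd3, Fzd6, Fzd8, Lrp5 and Lrp6) both ends of the gene were used in place of the start, so a peak there may lie at the end of the transcript. In the text, an open start window is one with a peak.

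The sequences just before 7 start sites are shown as examples: 4 starts had a peak within 1000 bases in 6 of 6 libraries, and 3 rich in CpG had none in any. Each line gives the 250 bases before the start, read in the direction of the gene, from RefSeq on GRCm38.p6, the assembly also called mm10. Capitals mark CpG, the dinucleotide at which mouse DNA is methylated and which is dense in CpG islands. The first 4 lines are open starts: Fzd1 at chr5:4758217-4758466 (minus strand) with 12 CpG, Fzd4 at chr7:89404116-89404365 (plus strand) with 25, Tcf7l1 at chr6:72789046-72789295 (minus strand) with 29, and an internal start of Wnt5b at chr6:119467212-119467461 (minus strand) with 4. The last 3 are starts with no peak: Wnt3a at chr11:59290752-59291001 (minus strand) with 41 CpG, Wnt4 at chr4:137277385-137277634 (plus strand) with 44, and Fzd10 at chr5:128600856-128601105 (plus strand) with 37.
Fzd1: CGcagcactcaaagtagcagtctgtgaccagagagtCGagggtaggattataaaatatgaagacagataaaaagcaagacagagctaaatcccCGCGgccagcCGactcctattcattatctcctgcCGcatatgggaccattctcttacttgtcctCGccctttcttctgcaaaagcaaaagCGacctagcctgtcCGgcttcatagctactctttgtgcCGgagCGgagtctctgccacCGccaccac
Fzd4: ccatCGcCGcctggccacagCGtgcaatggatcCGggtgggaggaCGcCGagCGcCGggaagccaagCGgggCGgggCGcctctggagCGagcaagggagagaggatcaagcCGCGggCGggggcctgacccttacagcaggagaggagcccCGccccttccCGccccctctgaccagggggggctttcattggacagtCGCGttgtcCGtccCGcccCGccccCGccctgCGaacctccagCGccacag
Tcf7l1: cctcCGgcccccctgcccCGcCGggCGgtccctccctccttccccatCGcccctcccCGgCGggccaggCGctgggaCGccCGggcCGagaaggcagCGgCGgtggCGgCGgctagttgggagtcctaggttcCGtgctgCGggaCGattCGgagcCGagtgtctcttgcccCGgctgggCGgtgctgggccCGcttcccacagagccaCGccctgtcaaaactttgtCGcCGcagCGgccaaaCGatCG
Wnt5b: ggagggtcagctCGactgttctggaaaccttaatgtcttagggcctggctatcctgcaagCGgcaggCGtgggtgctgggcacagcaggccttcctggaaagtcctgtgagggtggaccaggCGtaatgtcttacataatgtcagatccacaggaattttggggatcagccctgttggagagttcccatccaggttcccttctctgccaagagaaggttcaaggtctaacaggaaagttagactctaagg
Wnt3a: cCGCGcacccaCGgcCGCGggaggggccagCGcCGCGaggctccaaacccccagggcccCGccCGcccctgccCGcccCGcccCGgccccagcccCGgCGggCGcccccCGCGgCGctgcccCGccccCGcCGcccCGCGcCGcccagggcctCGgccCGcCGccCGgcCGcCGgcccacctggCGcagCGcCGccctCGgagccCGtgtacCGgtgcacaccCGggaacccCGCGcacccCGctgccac
Wnt4: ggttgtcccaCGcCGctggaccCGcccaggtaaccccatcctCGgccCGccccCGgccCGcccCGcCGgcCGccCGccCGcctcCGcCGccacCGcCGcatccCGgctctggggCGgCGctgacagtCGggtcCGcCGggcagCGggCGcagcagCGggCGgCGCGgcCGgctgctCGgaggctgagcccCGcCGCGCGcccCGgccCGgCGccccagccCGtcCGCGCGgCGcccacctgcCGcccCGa
Fzd10: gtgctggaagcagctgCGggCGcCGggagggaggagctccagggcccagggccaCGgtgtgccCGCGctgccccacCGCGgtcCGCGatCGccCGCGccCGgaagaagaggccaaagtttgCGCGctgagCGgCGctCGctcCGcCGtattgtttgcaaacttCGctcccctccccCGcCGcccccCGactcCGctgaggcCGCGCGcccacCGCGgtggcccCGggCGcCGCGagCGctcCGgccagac

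The 3 starts with no peak were chosen for their many CpG and do not stand for the set. Over all 36 start sites the order was the opposite, with a median of 24 CpG for the 8 open in 6 of 6 libraries and 17 for the 14 open in none. Open starts not shown, such as Fzd5 with 32 CpG, and starts of Lef1 and Wnt8b, with no peak and as few as 5 CpG, are part of that order.

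Of the 221 regions at Wnt pathway genes, 46 were present in 6 of 6 libraries, 20.8% (exact 95% binomial interval 15.7 to 26.8), against 24.4% of all regions. The interval covers counting error only. Another 70 regions, 31.7%, were present in 1 library alone, against 33.5% of all regions. The Wnt pathway regions were thus spread over the 6 libraries much like the rest of the genome's regions. Regions present in 1 library had a median of 5 tags at the summit, and those present in 6 of 6 had 15.8. Among the 20 regions present in 5 libraries, the missing library was control replicate 2 in 12 and knockdown replicate 3 in 7, the libraries with the fewest peaks.

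**Figure D1:**
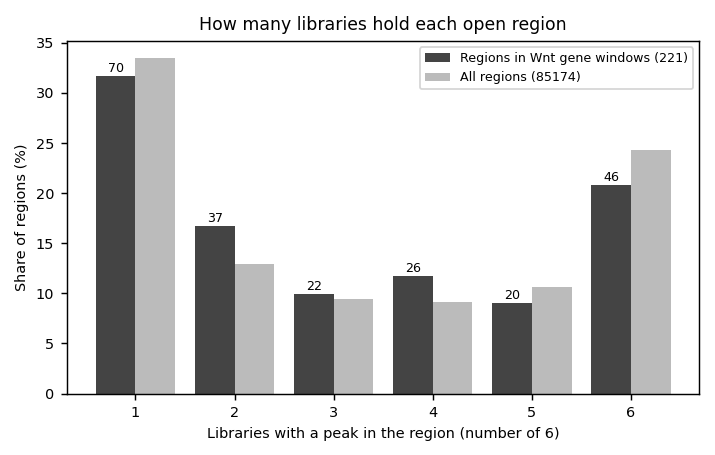
Share of open regions, in percent, by the number of libraries with a peak in them, for the 221 regions in Wnt gene windows (dark bars, with their counts) and all 85174 regions (light bars). In both sets the largest classes are regions of 1 library and regions of 6 libraries.

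The median gene of the set had 6 regions in its window, against 4 for all genes. Per 100 kb of window, the median was 8.94 regions against 5.48, whereas for regions in 6 of 6 libraries it was 1.41 against 1.46. Of the 46 regions present in 6 of 6, 17 overlapped the start window of some gene, 37.0% against 35.3% of all regions of this kind. Some of those starts belonged to neighbours: Fbxl14 beside Wnt5b, Tmem135 beside Fzd4, Skp1 beside Tcf7 and Arf3 beside Wnt10b. Others were Ddn beside Wnt1, Prkag3 beside Wnt6, Ppp6r3 beside Lrp5 and Tgoln1 beside Tcf7l1. For 12 of the 37 genes no region was present in 6 of 6 libraries.

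At start windows, 10 of 37 genes had a peak in 6 of 6 libraries, 27.0% against 37.4% of all genes, and 9 of 37 had none in any, 24.3% against 41.2%. The receptors held most of the open ones: 6 of 12, against 2 of 19 ligands and 2 of 6 effectors. These shares describe the chosen genes and were not tested against each other.

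**Figure D2:**
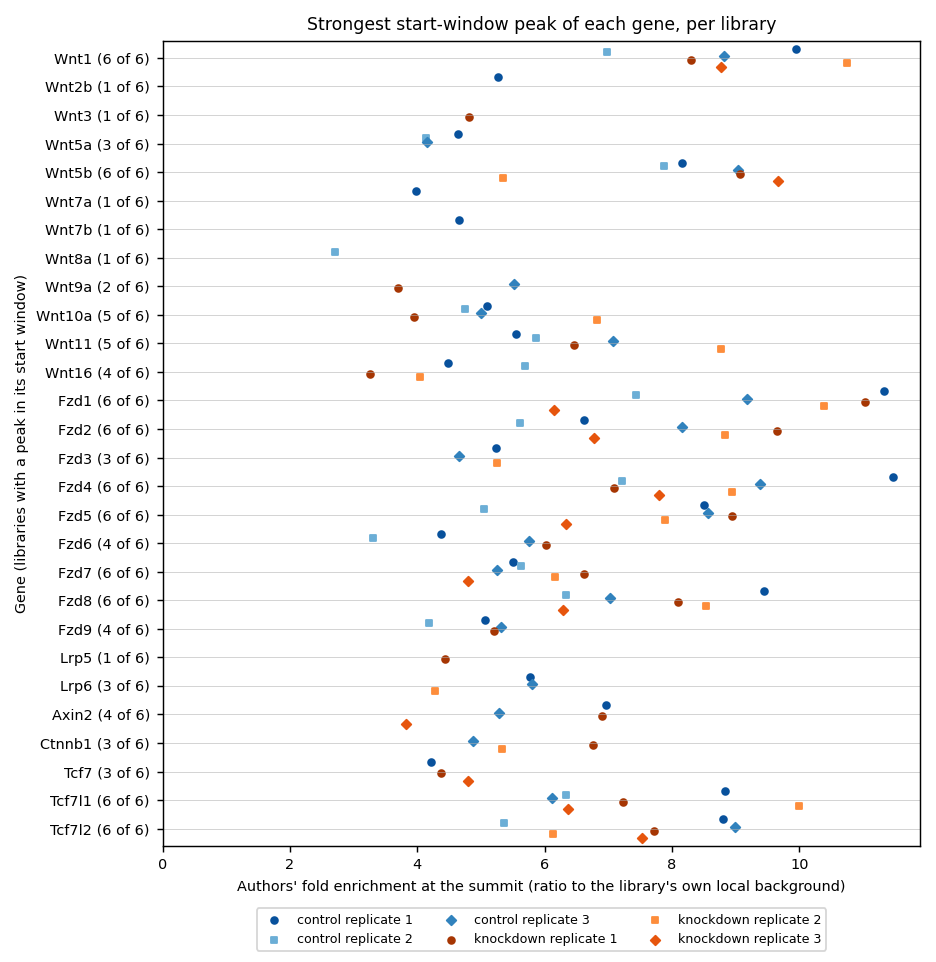
The authors' fold enrichment at the summit of the strongest peak in each gene's start window, per library; genes without a peak in any library are left out. Of the 10 genes open in 6 of 6 libraries, 6 are frizzleds, and control (blue) and knockdown (orange) values overlap at each of these 10.

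Among the ligands, the start windows of Wnt1 and Wnt5b were open in 6 of 6 libraries. Wnt1 is a classical activator of β-catenin signalling, and Wnt5b is a close relative of Wnt5a. Fold enrichment is the authors' own value for a peak, the tags at its summit relative to the background around it in that library, and it serves only to describe peaks. Values are given in the order of the replicate numbers. At the Wnt1 start the fold was 9.95, 6.98 and 8.82 in the controls and 8.30, 10.8 and 8.77 in the knockdown libraries, a mean of 8.93 ± 1.31 (SD, n = 6). Control replicate 2 was lowest and the groups overlapped. This region, chr15:98789071-98789715 on mm10, lies just upstream of the gene.

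Wnt5b was open at an internal start, chr6:119467176-119467928, and not at every annotated start. The fold was 8.16, 7.87 and 9.03 in the controls and 8.70, 5.34 and 9.66 in the knockdown libraries, and knockdown replicate 2 was lowest. The groups overlapped here too. With the peak lists cut to equal length, or with both gene ends in place of the starts, Wnt5b was not open in 6 of 6 libraries. Wnt5b carried the most regions of any ligand, 17, of which 4 were present in 6 of 6 libraries. Its window held 9, 7 and 11 peaks in the controls and 9, 15 and 9 in the knockdown libraries.

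The best supported regions of the ligands lay away from their start sites. Regions were ranked by the smallest −log10 q, the authors' significance after correction for multiple tests, among the 6 libraries. First came chr15:85598964-85600537, 17.1 kb above the higher-coordinate end of Wnt7b, with a smallest −log10 q of 13.3. Its fold was 7.03, 8.23 and 9.11 in the controls and 8.09, 8.0 and 9.20 in the knockdown libraries. These 6 values lay closer together than those at the Wnt1 start, with a mean of 8.28 ± 0.801 (SD, n = 6).

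The next lay at chr15:98780162-98781051, 1.96 kb upstream of Wnt10b and also in the window of Wnt1, and its smallest −log10 q was 12.7. There the fold was 9.88, 9.28 and 11.1 in the controls and 10.1, 9.67 and 8.51 in the knockdown libraries. Groups overlapped at this region, although the highest value was a control and the lowest a knockdown library. Wnt16 came after it, at chr6:22280174-22280748, 7.43 kb upstream of the gene, where the smallest −log10 q was 9.74. Its fold was 8.46, 7.96 and 11.2 in the controls and 9.33, 9.34 and 7.86 in the knockdown libraries, so here too the groups overlapped. Wnt16 is a ligand known from bone and joint tissue.

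The start windows of 7 ligands had no peak in any library: Wnt2, Wnt3a, Wnt4, Wnt6, Wnt8b, Wnt9b and Wnt10b. The absence concerns the start and not the whole locus, since each of these windows held a peak elsewhere in at least some libraries. Wnt2, a ligand best known from lung development, was an example, with a region inside the gene and upstream of the start site used, chr6:18031525-18032034, in 6 of 6 libraries. With windows of 2500 bases on each side of the start, Wnt2 and Wnt10b counted as open in 6 of 6, and with both gene ends Wnt2 did too. Its fold was 7.89, 5.98 and 4.93 in the controls and 7.61, 5.85 and 5.56 in the knockdown libraries, with overlapping groups. Wnt3a, another classical activator of β-catenin, had a region 3.02 kb upstream in 6 of 6 libraries, at fold 12.1, 3.93 and 8.74 in the controls and 9.72, 7.59 and 6.74 in the knockdown libraries. Control replicate 2 held both the lowest value there and only 5 tags.

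The remaining 10 ligands were open at the start in some libraries only. Wnt10a and Wnt11 had a start-window peak in 5 libraries and Wnt16 in 4. Wnt5a had one in 3 and Wnt9a in 2, while Wnt2b, Wnt3, Wnt7a, Wnt7b and Wnt8a had one in a single library. Wnt11 was missing only in knockdown replicate 3, one of the shallow libraries. Several ligand genes are neighbours, and 19 regions fell in the windows of a pair of them: 6 for Wnt6 and Wnt10a, 6 for Wnt3a and Wnt9a, 4 for Wnt3 and Wnt9b, and 3 for Wnt1 and Wnt10b. These windows are therefore not independent.

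Among the receptors, the start windows of Fzd1, Fzd2, Fzd4, Fzd5, Fzd7 and Fzd8 were open in 6 of 6 libraries. Frizzleds are seven-pass membrane proteins whose extracellular cysteine-rich domain binds the Wnt lipid. Fzd1, with chr5:4757701-4758455, had the highest mean fold at the start, 9.25 ± 2.08 (SD, n = 6). Its values were 11.3, 7.43 and 9.18 in the controls and 11.0, 10.4 and 6.14 in the knockdown libraries. The lowest value of each group came from its shallowest library.

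Fzd4, which also serves as the receptor for Norrin in retinal vessels, was open at chr7:89403777-89404888, a region that also reaches the start window of Tmem135. Its fold was 11.5, 7.21 and 9.39 in the controls and 7.10, 8.94 and 7.79 in the knockdown libraries. The groups overlapped, with control replicate 1 highest. At Fzd5 (chr1:64737108-64738159) the fold was 8.50, 5.04 and 8.57 in the controls and 8.94, 7.89 and 6.33 in the knockdown libraries, again with the shallow libraries lowest. Fzd7 (chr1:59481576-59482483) had the lowest and most even values of the 6, namely 5.51, 5.63 and 5.25 in the controls and 6.62, 6.17 and 4.80 in the knockdown libraries. Its mean was 5.66 ± 0.649 (SD, n = 6), and the groups overlapped.

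For Fzd2 and Fzd8, which were read at both gene ends, the groups overlapped as well. The strongest peak in the Fzd2 windows had a fold of 6.62, 5.62 and 8.16 in the controls and 9.65, 8.83 and 6.77 in the knockdown libraries. The value of control replicate 2 came from chr11:102604766-102605616, and the others from chr11:102604086-102604509, where that library had no peak. Neither region was present in 6 of 6 libraries. With windows of 500 bases on each side, Fzd2 was not open in 6 of 6. The fold of the strongest peak at Fzd8 was 9.45, 6.33 and 7.03 in the controls and 8.09, 8.53 and 6.29 in the knockdown libraries. Knockdown replicate 1 was read at chr18:9212883-9213804 and the others at chr18:9211761-9212593, where knockdown replicate 1 had 7.01. By number, Fzd8 had 2 peaks in each of the 6 libraries.

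The remaining frizzleds differed. Fzd6 and Fzd9 had a start-window peak in 4 libraries and Fzd3 in 3. Fzd3 and Fzd6 are known for planar cell polarity. Fzd10 had no region in its window in any library. The Fzd6 locus nevertheless held the region with the highest smallest −log10 q, 17.0, of all the receptors. It lay at chr15:39043267-39043795, 5.08 kb above the higher-coordinate end of Fzd6, with fold 15.5, 12.5 and 14.2 in the controls and 13, 15.2 and 11.0 in the knockdown libraries. Its mean of 13.6 ± 1.71 (SD, n = 6) was above that of every start window described here.

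The co-receptors are single-pass relatives of the LDL receptor that bind Wnt beside the frizzled. Neither had a start-window peak in 6 of 6 libraries: Lrp6 had one in 3 and Lrp5 in 1. Lrp5 nonetheless carried 13 regions, 4 of them in 6 of 6 libraries. The best supported was chr19:3575428-3576415, 8.41 kb below the gene and in the start window of its neighbour Ppp6r3, with a smallest −log10 q of 14.6. There the fold was 10.7, 9.95 and 9.07 in the controls and 13.8, 10.1 and 10.6 in the knockdown libraries, with overlapping groups. After it among the receptors came the Fzd8 region at chr18:9211761-9212593, with a smallest −log10 q of 7.81.

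In Lrp6, 2 regions inside the gene were present in 6 of 6 libraries. At chr6:134450693-134451081 the fold was 7.91, 3.99 and 7.19 in the controls and 14.8, 10.5 and 11.1 in the knockdown libraries. Every knockdown value lay above every control value, and the tags at the summit were 10, 4 and 9 against 25, 16 and 14. Among the 46 regions of the Wnt genes present in 6 of 6 libraries this held for 1, against 4% of all such regions, and the opposite order held for 0, against 1.71%. A count of 1 in 46 is thus no more than the background, and the fold, scaled within each library, was not tested. The region was singled out after its values were seen. At the other region, chr6:134473129-134473686, the fold was 4.72, 4.13 and 10.1 in the controls and 9.21, 8.75 and 7.76 in the knockdown libraries, and the groups overlapped.

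Of the effectors, Tcf7l1 and Tcf7l2 were open at the start in 6 of 6 libraries. Both encode DNA-binding partners of β-catenin, and Tcf7l1 is known mainly as a repressor. At the Tcf7l1 start (chr6:72788147-72789860) the fold was 8.83, 6.33 and 6.11 in the controls and 7.24, 9.99 and 6.37 in the knockdown libraries. Tcf7l2 was open at its first start (chr19:55741222-55741727), with fold 8.81, 5.37 and 6.64 in the controls and 6.05, 5.57 and 6.96 in the knockdown libraries. The groups overlapped at both starts, and with lists of equal length Tcf7l2 was not open in 6 of 6. These long genes also held the most regions among the effectors, 16 each, of which 5 at Tcf7l1 and 3 at Tcf7l2 were present in 6 of 6.

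The best supported effector region, chr6:72616365-72617137, lay 9.23 kb downstream of Tcf7l1 in the start window of Tgoln1, with a smallest −log10 q of 9.63. Its fold was 8.90, 8.29 and 8.72 in the controls and 9.70, 9.90 and 8.13 in the knockdown libraries. A region inside Tcf7l2 at chr19:55876589-55877063 had 7.87, 6.61 and 9.60 in the controls and 8.54, 8.95 and 7.16 in the knockdown libraries. Both regions showed overlapping groups. Ctnnb1, the gene of β-catenin, had 1 such region 5.92 kb upstream, chr9:120926962-120927480, with fold 7.37, 5.41 and 11.3 in the controls and 7.48, 8.06 and 5.60 in the knockdown libraries. Control replicate 3 was highest there and the groups overlapped.

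At its own start Ctnnb1 had a peak in 3 libraries: control replicate 3 at fold 4.88 and knockdown replicates 1 and 2 at 6.77 and 5.32. Axin2, a scaffold of the destruction complex and a widely used target gene of the pathway, had a start peak in 4 libraries, missing in control replicate 2 and knockdown replicate 2. The fold in those 4 was 6.97 and 5.28 in the controls and 6.91 and 3.82 in the knockdown libraries. A region 1.35 kb downstream of Axin2 was present in 6 of 6, at fold 6.93, 5.54 and 13.4 in the controls and 8.49, 7.30 and 4.06 in the knockdown libraries. Its spread was the widest of the effector regions described, and the groups overlapped.

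Tcf7 had a start peak in 3 libraries, control replicate 1 and knockdown replicates 1 and 3. Lef1, whose protein binds the same DNA motif, had no start peak in any library, and the 2 regions in its window were present in knockdown replicate 3 alone, at fold 3.27 and 4.80. Lef1 was thus the emptiest effector locus, next to Fzd10 among the receptors.

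**Figure D3:**
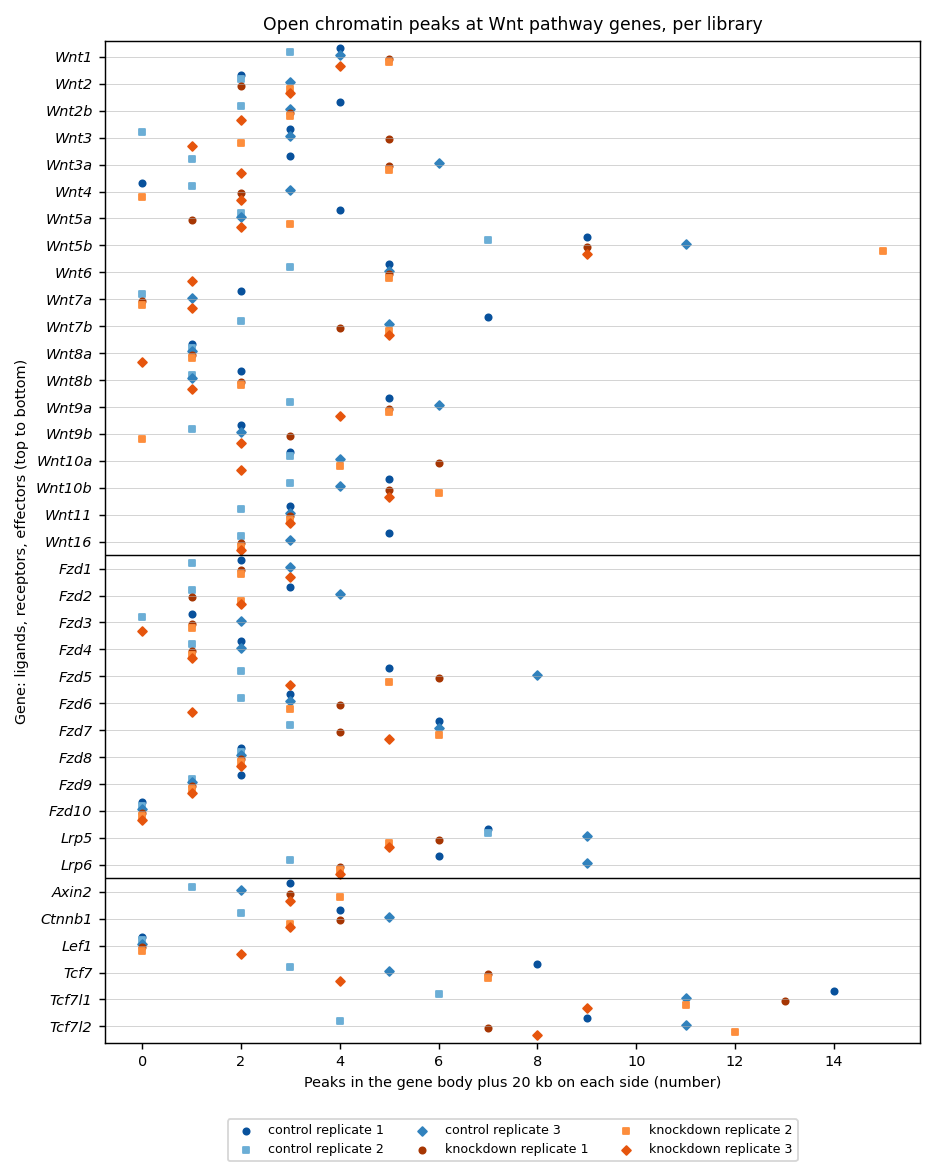
Number of peaks per library in the body of each gene plus 20 kb on each side, with ligands, receptors and effectors separated by lines. Control (blue) and knockdown (orange) libraries overlap at every gene except Lrp5, where the controls have 7, 7 and 9 peaks and the knockdown libraries 6, 5 and 5.

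The main question of the design was whether accessibility differed after the Arid3a siRNA. In the 37 windows together, the controls had 137, 73 and 141 peaks and the knockdown libraries 121, 129 and 102. Peaks in the shared windows of neighbouring genes were counted once. The means were 117 ± 38.2 and 117 ± 13.9 (SD, n = 3 each), so no difference stood out from the spread between libraries. Per 10000 peaks in the list, which allows for list length, the means were 25.2 ± 2.85 and 24.5 ± 0.609.

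By class, again with each peak counted once, ligand windows held 60, 34 and 58 peaks in the controls and 55, 60 and 46 in the knockdown libraries. Effector windows held 38, 16 and 34 against 34, 37 and 29. Receptor windows held 39, 23 and 49 against 32, 32 and 27. Only the receptor counts stopped overlapping once divided by list length: 7.60, 6.92 and 9.41 per 10000 peaks in the controls against 6.33, 6.24 and 6.49 in the knockdown libraries. With co-receptors and frizzleds summed apart, only the sum of Lrp5 and Lrp6 separated the groups. It was 2.53, 3.01 and 3.46 per 10000 peaks against 1.98, 1.76 and 2.16. Before division the sums touched, at 13, 10 and 18 peaks against 10, 9 and 9. The sum contains Lrp5, the gene singled out below, and Lrp6 by itself overlapped, at 6, 3 and 9 peaks against 4, 4 and 4. Taken singly, 9.59% of all genes had groups that did not overlap per 10000 peaks. Of the 37 genes, 6 did: Wnt16, Fzd4, Axin2, Wnt10b, Wnt1 and Lrp5. Of these, 3 were higher in the controls and 3 in the knockdown libraries. The summed frizzleds overlapped, at 5.07, 3.91 and 5.95 against 4.35, 4.49 and 4.32, although Fzd4 by itself did not. The class sums were not tested.

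Gene by gene, the peak numbers of the groups did not overlap at 1 of 37 genes, Lrp5, which was higher in the controls. Over all 17734 genes with a peak in the window, 0.66% were higher in every control than in every knockdown library and 1.16% were lower. Lrp5 had 7, 7 and 9 peaks in the controls and 6, 5 and 5 in the knockdown libraries. The difference of -2.33 peaks had an exact two-sided permutation p of 0.1, the smallest that 20 relabellings of 6 libraries allow, and a Benjamini-Hochberg adjusted p of 1. No gene of the 17734 could pass this test: 0 had an adjusted p under the threshold of 0.05 (0%), and 0 an unadjusted one. Of the 13 Lrp5 regions, 6 were found in control libraries only and 1 in a knockdown library only, while 4 were present in all 6. None of the regions found in controls only was called in every control, and 5 of the 13 were present in 1 library alone. Lrp5 was singled out for its higher control counts, so this split restates that choice. The same split was not counted over all regions. The gene body alone did not separate the groups.

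No region at these genes was control-only, that is, called in each control and in no knockdown library, against 0.277% of all regions. In the opposite direction, 1 of 221 was knockdown-only, against 0.432% of all regions, a share close to the background. This region, chr15:98805354-98805653, lies 11.5 kb downstream of Wnt1, inside the neighbouring gene Ddn, which encodes the neuronal protein dendrin. Its fold was 4.24, 5.47 and 3.89 in the knockdown libraries, a mean of 4.53 ± 0.833 (SD, n = 3), with 7, 9 and 6 tags at the summit. These are fewer tags than in the median peak of each list. With lists of equal length, or with a −log10 q of at least 5, it was no longer knockdown-only. Nearby, the region chr15:98804154-98804572 in the start window of Ddn was present in 6 of 6 libraries.

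At start windows, 1 gene of 37 had a peak in each control and in no knockdown library, Wnt5a, against 0.101% of all genes, and 0 of 37 in the opposite direction, against 0.119%. Wnt5a is a ligand known for β-catenin-independent signalling and for roles in cell migration. The window in question surrounds the lower-coordinate end of the gene, and the peaks there had a fold of 4.64, 4.13 and 4.15 with 7, 5 and 7 tags. They formed 2 separate regions, chr14:28504469-28504763 in control replicate 1 and chr14:28505144-28505742 in control replicates 2 and 3, so neither region alone separated the groups. Knockdown replicate 2 had a peak at chr14:28506360-28506649, just outside the window.

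The call at Wnt5a was lost with windows of 500 or 2500 bases on each side, with lists of equal length and with a −log10 q of at least 5. A further region above the gene, chr14:28532843-28533376, was present in 6 of 6 libraries. There the fold was 8.70, 5.89 and 6.47 in the controls and 7.30, 7.73 and 8.16 in the knockdown libraries, with overlapping groups.

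**Figure D4:**
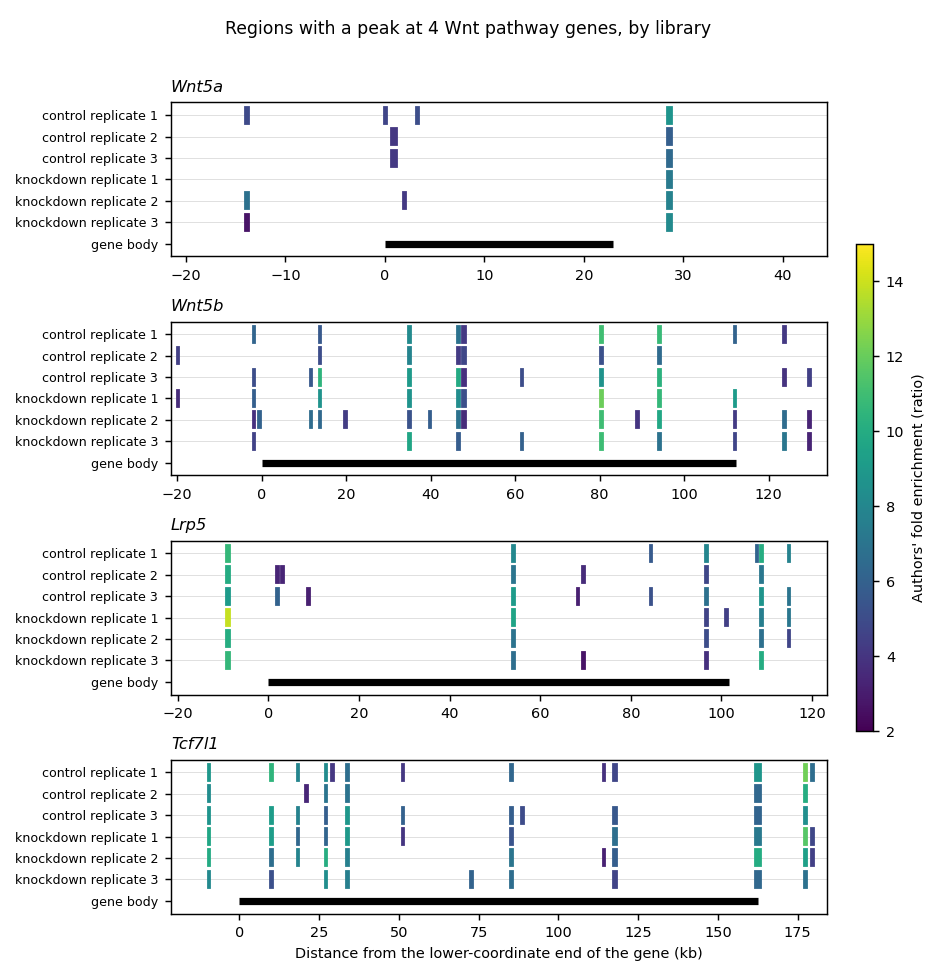
Positions of open regions at Wnt5a, Wnt5b, Lrp5 and Tcf7l1 in each library, in kb from the lower-coordinate end of the gene (black bar), coloured by the authors' fold enrichment. The weak control peaks at the lower-coordinate end of Wnt5a fall in 2 different places, and 4 Lrp5 regions appear in all 6 libraries.

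The start sites of the Wnt genes were rich in CpG. In the 250 bases before the start, the 36 start sites of 27 genes had a median of 23.5 CpG, against 10 for 21263 start sites of all coding genes. Across all genes, more CpG went with open starts: the median was 17 for starts open in 6 of 6 libraries and 3 for starts open in none. For the Wnt genes these medians were 24 over 8 start sites and 17 over 14, and those open in 1 to 5 libraries had 34.5 over 14. With 30 or more CpG, 2 of 14 Wnt gene starts were open in 6 of 6 libraries, 14.3%, against 53.2% of all start sites with as many. In the same range, 4 of 14 had no peak in any library, 28.6% against 11.7%. Wnt3a, Wnt4, Fzd10 and a start of Wnt11 made up these 4, and the sequences of the first 3 are those printed above. With 20 to 29 CpG, 3 of 8 were open in 6 of 6, 37.5% against 64.8%. Start sites of 1 gene share their locus, and the shares were not tested.

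**Figure D5:**
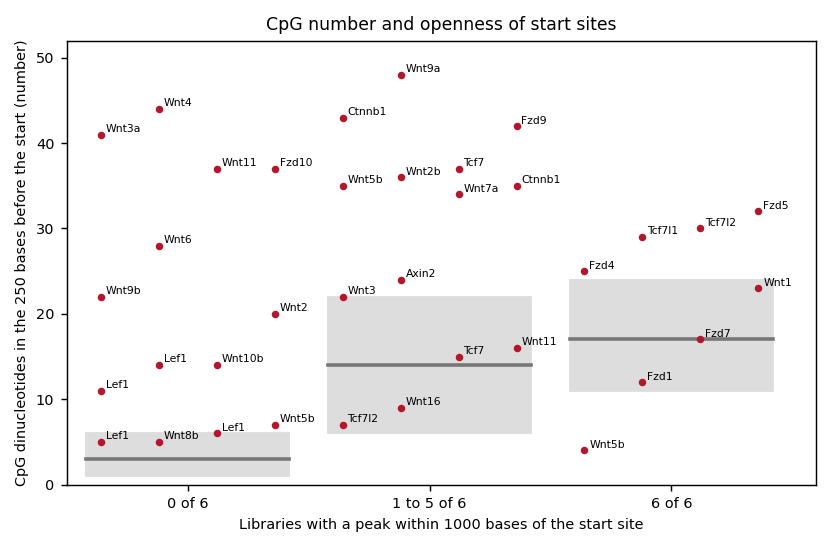
Number of CpG dinucleotides in the 250 bases before each annotated start of the Wnt genes (points), grouped by the number of libraries with a peak within 1000 bases; position within a group has no meaning. Grey boxes and lines give the middle 50% and the median of all coding genes, and Wnt3a, Wnt4, Fzd10 and a start of Wnt11 lie far above the box for starts open in no library.

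The motif TCAAAG, the core of the site bound by Lef1 and the Tcf proteins, was found on either strand in 4 of 36 of these 250-base sequences, 11.1%, against 12.7% of all. ATTAAA, a string of the AT-rich kind bound by ARID3 proteins, was found in 2 of 36, 5.56%, against 11.0%. These shares were not matched for base composition: the median share of G and C was 71.2%, against 55.6% for all. Among all start sites, ATTAAA was found in 6.01% of those open in 6 of 6 libraries and 17.1% of those open in none. Matches of the motifs can share a base, and a match is a description of letters. The printed Fzd1 sequence holds TCAAAG.

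Other genes of the pathway were described as 7 lists, of which 56 of 57 symbols matched. At start windows, 25 of 56 were open in 6 of 6 libraries and 11 in none, beside 37.4% and 41.2% of all genes. The lists are small, and their counts were not tested against that share. The cytoplasmic relay and destruction complex was the most open, with 8 of 11, followed by nuclear partners of β-catenin with 4 of 7 and Wnt secretion with 2 of 4 (Wls and Porcn). R-spondins with their receptors and ligases had 4 of 9 (Lgr4, Lgr5, Rnf43 and Rspo2), and common target genes 3 of 7 (Myc, Tnfrsf19 and Ccn4). The other co-receptors had 2 of 6 (Ror1 and Kremen1). Secreted inhibitors had 2 of 12 (Sfrp1 and Wif1), and 6 of the 12 had no peak in any library.

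Between the groups, 2 regions at these 56 genes were knockdown-only and 0 control-only. They were 1 of 85 regions of the R-spondin list and 1 of 95 of the cytoplasmic relay, with none in the other lists, against 0.432% knockdown-only among all regions, so the count is near the background. One lay at Lgr4, a receptor for R-spondins, at chr2:109944886-109945330 with fold 5.54, 9.25 and 4.65 in the knockdown libraries. The other lay at Gsk3b, the kinase that marks β-catenin for degradation, at chr16:38120304-38120805 with fold 4.15, 4.24 and 2.67. Peak numbers did not overlap between groups at 1 of 56 genes, Bcl9l, a β-catenin co-activator, with 5, 4 and 5 peaks in the controls and 6, 8 and 6 in the knockdown libraries. Over all genes tested, 1.16% were higher in every knockdown library and 0.66% in every control, so this count too is near the background. None of the 56 had an exact permutation p adjusted under the 0.05 threshold, and none of the 17734 genes could reach an unadjusted one below 0.1.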

How the data were processed

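ATAC-seq peak lists of 3 control and 3 knockdown libraries were used. Per the submitters' processing notes, Bowtie2, Picard and MACS2 and the build mm10 were used. Not given in the sources used here are their versions, settings and handling of duplicates and Tn5 offsets. Each deposited list gives, per peak of 1 library, positions, a summit, a score, a fold enrichment ratio, and −log10 p and −log10 q values. A missing Tn5 shift would move summits by a few bases, and kept duplicates would raise tags and peak calls.

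Overlapping peaks (minimum 1 base) of the 6 libraries were joined into regions, and a library with any peak in a region counted as present. Tags were recovered from the deposited fold and −log10 p as whole numbers within 0.001. Depth assumed a genome size of 1870000000 bases, so it serves to rank libraries. Gene positions, start sites and sequences came from RefSeq GRCm38.p6; exons and UTRs were not told apart. Peak numbers per gene window were compared by exact two-sided permutation over 6 libraries with Benjamini-Hochberg adjustment over all 17734 genes with a peak. The scripts (Python 3.11.15, pandas 2.3.3, SciPy 1.17.1) were tested on simulated data. Alternatives covered peak cover, −log10 q, equal list lengths, depth, window sizes and leaving out each library. The rule for the genes uses symbols alone, but this gene set and the pathway lists were proposed with earlier results of these data known. Values of every library were given for group-specific regions, genes with non-overlapping peak numbers, the 3 regions per class with the highest smallest −log10 q (1 per gene) and start regions open in 6 of 6.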

Additional observations from a re-analysis of the deposited data

How the results depend on the processing

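Group-specific regions, 1 as reported, were 4 when a peak had to cover 50% of the region, 2 with lists of equal length, 14 of 203 with the 4 deepest libraries, where 5.14% of all regions were group-specific, 0 in gene bodies alone and 2 with 50 kb on each side. In the other settings without a library left out, 0.453% to 0.922% of all regions were. At a −log10 q of at least 5 there was again 1, but not the region near Wnt1. They numbered 3 to 9 with a library left out: 7, 9 and 3 without control replicates 1 to 3, and 4, 3 and 4 without knockdown replicates 1 to 3; fewer libraries then had to agree, and 1.82% to 2.48% of all regions were group-specific. The share of regions present in 6 of 6, 20.8%, was 10.9% with 50% cover (13.7% of all regions), 36.9% in the 4 deepest libraries (40.2%) and 21.9% to 26.9% with a library left out (26.2% to 31.5%). Genes with non-overlapping peak numbers, 1 as reported, were 0 at a −log10 q of at least 5 (0.624% of all genes) and 7 in the 4 deepest libraries (14.2%). They were 0 in gene bodies alone (1.16%), 2 with 50 kb (2.17%) and 6 per 10000 peaks (9.59%). With a library left out they were 1 to 5, against 4.17% to 7.52% of all genes (3 without control replicate 1, 5 without control replicate 2 and 2 without knockdown replicate 3). The Lrp5 difference was negative in 13 of 13 alternatives, from -3.33 to -1.67 peaks, and -0.611 on the scale per 10000 peaks (1.73 in the controls against 1.12). Lrp5 was singled out because its groups did not overlap. Leaving out a library or blocking by replicate number therefore could not change this sign. Genes open at the start in 6 of 6, 10 as reported, were 6 at a −log10 q of at least 5 (25.1% of all genes). Fzd5, Fzd7, Wnt5b and Tcf7l2 were then lost. With lists of equal length there were 8 (30.0% of all genes), without Wnt5b and Tcf7l2. With a library left out they were 10 to 12, against 37.6% to 41.4% of all genes. Group-specific start windows, 1 as reported, were 0 at that −log10 q, with equal lists and with windows of 500 or 2500 bases, where 0.146% to 0.334% of all genes had one. With a library left out they were 1 to 3 (3 without knockdown replicate 1), against 0.516% to 0.644% of all genes. Using both gene ends for every gene, chosen after seeing the data, gave 11 open genes (36.5% of all genes) and 1 group-specific window (0.256%). Deviations of same-numbered libraries correlated at 0.04, -0.09 and -0.09, and those of other pairs at -0.08 to 0.14. With so few tags per summit, these values cannot decide whether same-numbered libraries were paired. The comparison with the replicate number as a block gave 1 gene, Lrp5, which any pairing of its non-overlapping groups would give. For settings that do not leave out libraries, the cause was not tested. Libraries of 8 tags per median peak limit what weak peaks can show.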
